A study of Mus musculus with 4 samples.

Results

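The genes examined here encode the breakdown of the branched-chain amino acids leucine, isoleucine and valine. They are 10 genes taken by name (Bcat2, Bckdha, Bckdhb, Dbt, Bckdk, Ppm1k, Ivd, Acad8, Mccc1 and Hibch) out of 32868 gene names in the deposited expression values. All 10 were present as a single row. The tissue was the tibialis anterior, the fast muscle along the shin, of C57BL/6 mice at postnatal day 21, and its RNA was sequenced. The Nf1-KO group (labelled Nf1flox/flox/Myf5+) carried both Nf1 alleles in floxed form, and the Het group (Nf1flox/+/Myf5+) carried 1 floxed and 1 unfloxed allele, so the controls share the Myf5+ element and a floxed allele. The labels do not spell out Myf5+, a gene active in muscle precursors that commonly drives Cre in crosses of this kind, so Nf1 would be intact in cells outside that lineage. Each group had 2 libraries. Whether a library stands for its own animal or for a pool is not in the labels, so p-values measure only the spread between libraries.

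Skeletal muscle is a main site of the first step of this pathway, in contrast to most amino acids, whose breakdown starts in the liver. A mitochondrial transaminase moves the amino group of leucine, isoleucine or valine onto 2-oxoglutarate. The resulting ketoacids are then decarboxylated by the branched-chain ketoacid dehydrogenase complex, which commits them to breakdown. A dedicated kinase phosphorylates the E1 alpha subunit and switches the complex off, and a dedicated phosphatase switches it back on. Beyond the complex the 3 amino acids follow separate arms: leucine ends in acetyl-CoA and a ketone body, valine in propionyl-CoA, and isoleucine in both acetyl-CoA and propionyl-CoA.

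Most of the pathway was higher in Nf1-KO, and the kinase was the main exception within the complex and its regulators. Of the 10 members, 9 passed the filter on low values, and 7 of these rose with a limma adjusted p under 0.05 while 0 fell, and none of the 9 had a log2 fold change under 0. Over all 10690 tested genes 50.3% were called, 24.9% higher and 25.4% lower. The members' median log2 fold change was 0.56 against 0.00 over all tested genes. The phosphatase Ppm1k rose the most and the dehydrogenase Ivd next, while the kinase Bckdk and the valine-arm hydrolase Hibch did not pass the test. Mccc1 was listed close to 0 in every library and was not tested. After scaling, both Nf1-KO libraries lay above both Het libraries in 8 of the 9 tested members, against 38.2% of all tested genes (and 38.1% below). The exception was Bckdk. As deposited, all 9 lay above, against 49.8% of all tested genes.

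Values are RPKM, reads divided by the length of the gene and by the depth of the library, as deposited. Fold changes are on the log2(RPKM + 1) scale after scaling between libraries, which understates the change of low genes. Estimated depth was 36500000 to 58100000 reads per library, with Nf1-KO (47000000 and 51000000) inside the range of Het. Replicates differed little: the coefficient of variation had a median of 2.02% for Het and 1.91% for Nf1-KO across the 4827 genes with a mean of 5 RPKM or more. The targeted gene Nf1, which encodes the Ras inhibitor neurofibromin, was 1.09 and 1.01 RPKM in Het and 0.89 and 0.85 RPKM in Nf1-KO. Its log2 fold change of -0.18 (SE 0.057) had a limma adjusted p of 0.041, and at a pseudocount of 0.1 the log2 fold change was -0.33 (limma adjusted p 0.045). The authors' deposited table also called Nf1 lower (-0.38, adjusted p 0.0026). With values as deposited the call was lost (-0.13, limma adjusted p 0.094). Leaving out any 1 of the 4 libraries also ended that call, and over its alternatives the limma adjusted p ran from 0.020 to 0.179. Markers of muscle were abundant in every library, among them Acta1 at 12305 RPKM or more.

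Bcat2 encodes the mitochondrial branched-chain aminotransferase, the first enzyme of the pathway and the form used in muscle (GRCm38 chromosome 7, 45570153 to 45589711). It was listed at 10.59 and 10.08 RPKM in the Het libraries and at 18.31 and 17.85 RPKM in the Nf1-KO libraries. Both Nf1-KO libraries thus lay well above both Het libraries, and the replicates of a group were within 1 RPKM of each other. The log2 fold change was 0.66 (SE, the standard error, 0.037; limma adjusted p 3.6e-05). The cytosolic form Bcat1, which belongs to tissues such as brain, was listed at 0 to 0.03 RPKM and was not tested. Slc25a44, the carrier that brings branched-chain amino acids into mitochondria, went the other way, from 8.54 and 7.23 RPKM in Het to 7.10 and 6.21 RPKM in Nf1-KO. Its log2 fold change was -0.30 (SE 0.086, limma adjusted p 0.029), but the groups were separated by only the gap between 7.23 and 7.10 RPKM. The call for Slc25a44 was lost with values as deposited (-0.21, limma adjusted p 0.084), without Het replicate 1 (-0.20, 0.125) and without Nf1-KO replicate 2 (-0.20, 0.078), and over all its alternatives the limma adjusted p ran from 0.0032 to 0.129. The authors' deposited table called Slc25a44 lower (-0.35, adjusted p 0.0019). Exons of Bcat2 overlap those of 0610005C13Rik on the other strand. Since the strand setting of the counting is not given, the row of Bcat2 may hold reads of both.

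**Figure D1:**
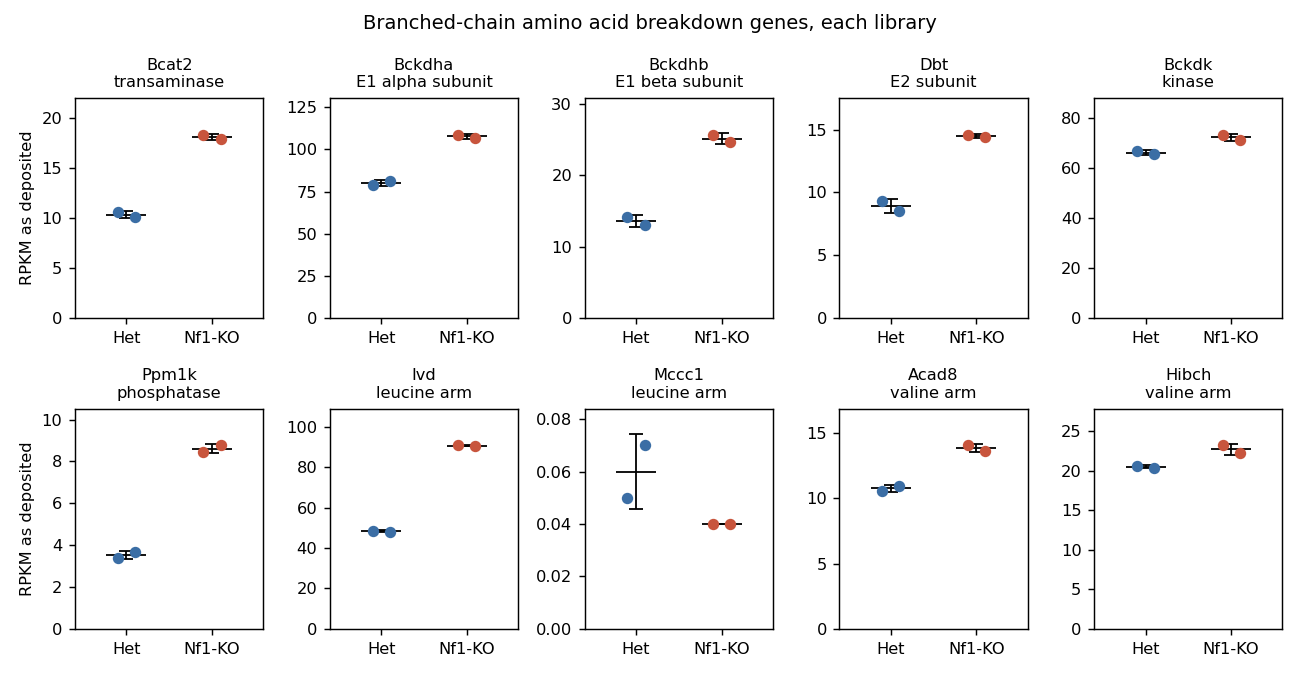
RPKM as deposited (vertical axis, from 0, a separate scale per gene) of the 10 genes in the 2 Het (blue) and 2 Nf1-KO (red) libraries, with the group mean and SD in black. Ppm1k goes from 3.40 and 3.67 RPKM to 8.45 and 8.77 RPKM, Bckdk stays between 65.53 and 73.46 RPKM, and Mccc1 is at 0.07 RPKM or less in every library.

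The ketoacid dehydrogenase complex is built from E1 (a tetramer of alpha and beta subunits), E2 and E3. Bckdha, the E1 alpha subunit that carries the regulatory phosphorylation sites (chromosome 7, 25629946 to 25658981), was 78.82 and 81.50 RPKM in Het and 108.72 and 106.58 RPKM in Nf1-KO. It was the most abundant member, and its groups were separated by about 25 RPKM. The log2 fold change was 0.33 (SE 0.026, limma adjusted p 1.5e-04). Bckdhb, the E1 beta subunit that completes the active site (chromosome 9, 83925145 to 84124240), was 14.24 and 13.00 RPKM in Het and 25.70 and 24.61 RPKM in Nf1-KO. Its lower Nf1-KO library was still more than 10 RPKM above its higher Het library. The log2 fold change was 0.75 (SE 0.048, limma adjusted p 6.0e-05). Dbt, the E2 core that passes the acyl group to coenzyme A (chromosome 3, 116513070 to 116549981), was 9.30 and 8.53 RPKM in Het and 14.60 and 14.41 RPKM in Nf1-KO. The groups did not overlap, and the log2 fold change was 0.56 (SE 0.046, limma adjusted p 1.7e-04). Dld, the E3 subunit that this complex shares with the pyruvate and 2-oxoglutarate dehydrogenases, was the most abundant of the 4, at 127.83 and 127.40 RPKM in Het and 175.96 and 175.20 RPKM in Nf1-KO. Its log2 fold change was 0.36 (SE 0.018, limma adjusted p 2.2e-05), so all 4 subunits rose, against 24.9% of all tested genes. Exons of Bckdha overlap those of B3gnt8 on the other strand, with the same limit as for Bcat2.

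The size of the rise differed between subunits: the 95% interval of the log2 fold change was 0.26 to 0.39 for Bckdha, 0.63 to 0.87 for Bckdhb and 0.45 to 0.67 for Dbt, so that of Bckdha met neither of the others. Within a library, the ratio of Bckdhb to Bckdha was 0.181 and 0.160 in Het and 0.236 and 0.231 in Nf1-KO. The ratio of Dbt to Bckdha was 0.118 and 0.105 in Het and 0.134 and 0.135 in Nf1-KO. Both ratios were thus higher in the 2 Nf1-KO libraries than in either Het library. The log2 differences were 0.46 and 0.28. With 2 libraries against 2 the exact permutation test (two-sided) cannot go below 0.33, and it gave 0.33 for each. These ratios are per length and within a library, so scaling between libraries does not touch them.

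Bckdk and Ppm1k are the opposing kinase and phosphatase of the E1 alpha subunit. Their promoters are shown because the genes act on the same protein and moved unequally, with that of Ivd, the other strong increase, beside them. Each is the 250 bases before the RefSeq start of the gene (build GRCm38.p6), 5′ to 3′ on the strand of the gene, and capitals mark CCAAT or its reverse complement ATTGG, a common promoter element bound by the factor NF-Y.
Ppm1k, chr6:57535488-57535737, minus strand: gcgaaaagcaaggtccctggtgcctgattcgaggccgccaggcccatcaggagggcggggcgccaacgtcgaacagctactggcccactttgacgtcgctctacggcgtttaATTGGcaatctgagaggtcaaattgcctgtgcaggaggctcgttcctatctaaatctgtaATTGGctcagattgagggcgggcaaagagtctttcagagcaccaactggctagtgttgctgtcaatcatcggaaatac
Bckdk, chr7:127903823-127904072, plus strand: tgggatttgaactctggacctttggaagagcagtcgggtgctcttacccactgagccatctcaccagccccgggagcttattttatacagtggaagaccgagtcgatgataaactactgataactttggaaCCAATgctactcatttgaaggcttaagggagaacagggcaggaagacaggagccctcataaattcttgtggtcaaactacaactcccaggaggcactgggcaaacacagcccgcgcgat
Ivd, chr2:118861744-118861993, plus strand: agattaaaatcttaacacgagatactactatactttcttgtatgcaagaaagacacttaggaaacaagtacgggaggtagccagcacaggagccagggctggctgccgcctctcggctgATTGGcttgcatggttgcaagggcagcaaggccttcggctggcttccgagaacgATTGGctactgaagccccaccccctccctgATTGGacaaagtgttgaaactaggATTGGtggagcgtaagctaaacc

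Ppm1k held 2 matches, Bckdk 1 and Ivd 4. With the 50 bases after the start included, Mccc1 held 3, the promoters of Bckdhb 2 and 1, and Acad8 1. Bckdha, Hibch and both promoters of Bcat2 held 0. Whether the number of matches goes with the change in RNA was not tested. Promoter sequences were found for 9 of the 10 members (11 promoters, with 2 each for Bcat2 and Bckdhb). Over windows of 300 bases (250 before and 50 after the start, both strands), CCAAT was in 7 of these 11 promoters (63.6%) and in 37.4% of the 32851 promoters of the table. The GC box GGGGCGGGG was in 4 of 11 (36.4%) against 11.4%. The 19 promoters of other pathway genes had similar shares, with CCAAT in 57.9% and the GC box in 31.6%. These 19 held 2 each for Bcat1, Mmaa, Aldh6a1 and Pcca, and none was found for Acat1, Slc25a44, Mut and Mmadhc. None of the 11 windows held the estrogen-related receptor element TCAAGGTCA (0.423% of all promoters) or the shorter half-site AAGGTCA that lies within it (4.72%). The clock E-box CACGTG (7.15%) was also absent. At shares this low, 11 windows are too few to tell 0 from the share over all promoters. The members' windows held a median of 13 CpG dinucleotides against 7 over all promoters. Matches are letters in a window and are not measured binding sites.

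Bckdk, the kinase that switches the complex off (chromosome 7, 127904082 to 127910221), was 67.08 and 65.53 RPKM in Het and 73.46 and 71.33 RPKM in Nf1-KO. As deposited the Nf1-KO libraries lay slightly higher, and after scaling the groups overlapped. The log2 fold change was 0.03 with a 95% interval of -0.03 to 0.09 and a limma adjusted p of 0.347. With values as deposited and not scaled it was 0.12 and passed (limma adjusted p 0.0085; 0.0085 to 0.807 over its alternatives). The median log2 fold change over all tested genes was 0.07 in that setting. Ppm1k, the mitochondrial phosphatase that switches the complex on (chromosome 6, 57506502 to 57535468), was 3.40 and 3.67 RPKM in Het and 8.45 and 8.77 RPKM in Nf1-KO. Every Nf1-KO value was more than 2 times every Het value. The log2 fold change was 1.00 (SE 0.050, limma adjusted p 2.0e-05), and with a pseudocount of 0.1 it was 1.17. Ranked by log2 fold change, Ppm1k lay at percentile 99.0 of all tested genes.

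The 2 regulators were also set against each other within each library. The ratio of Ppm1k to Bckdk within a library was 0.0507 and 0.0560 in Het and 0.115 and 0.123 in Nf1-KO, a log2 difference of 1.16. The kinase RNA remained the more abundant per length in every library. The ratio of Bckdk to Bckdha, the kinase against its substrate, was 0.851 and 0.804 in Het and 0.676 and 0.669 in Nf1-KO, a log2 difference of -0.30. In both ratios the groups were apart in all 4 libraries, and the exact permutation test gave 0.33, the smallest p that 2 against 2 allows. Protein, phosphorylation and flux were not measured.

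**Figure D2:**
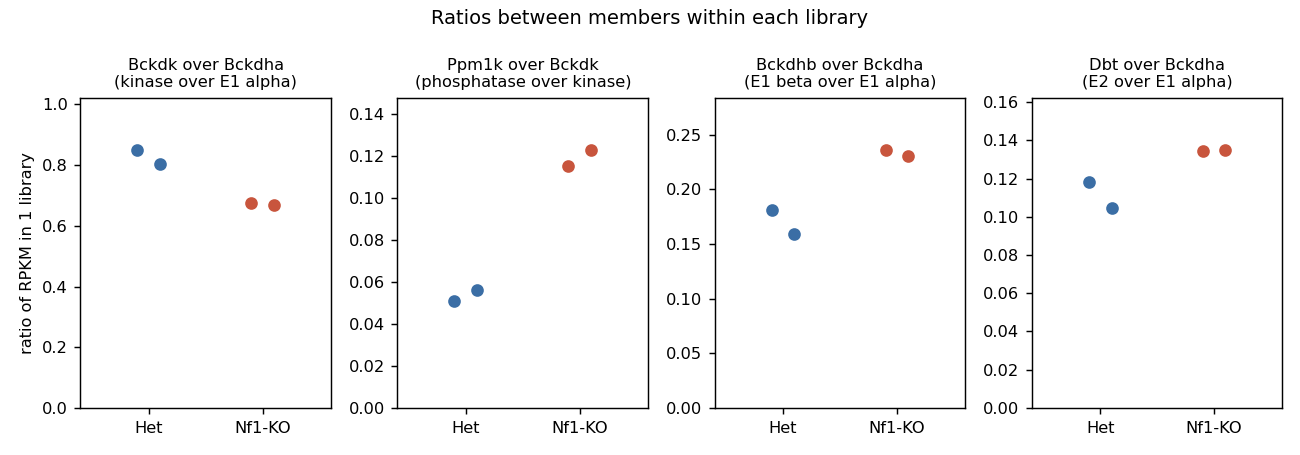
Ratios of RPKM between 2 genes within 1 library (vertical axis, from 0, separate scales) for the 2 Het (blue) and 2 Nf1-KO (red) libraries. The ratio of Ppm1k to Bckdk is 0.0507 and 0.0560 in Het and 0.115 and 0.123 in Nf1-KO, and that of Bckdk to Bckdha is lower in both Nf1-KO libraries.

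The genes of the leucine arm described here are Ivd, the methylcrotonyl-CoA carboxylase subunits Mccc1 and Mccc2 and the hydratase Auh. Ivd, isovaleryl-CoA dehydrogenase (chromosome 2, 118861954 to 118882909), was 48.57 and 47.89 RPKM in Het and 90.84 and 90.43 RPKM in Nf1-KO. Replicates differed by less than 1 RPKM and the groups by more than 40 RPKM. The log2 fold change was 0.80 (SE 0.022, limma adjusted p 2.2e-06), the smallest adjusted p of the members. All 3 of these that were tested rose, against 24.9% of all tested genes. The log2 fold changes were 0.52 for Mccc2 and 0.32 for Auh.

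Mccc1, the biotin-carrying alpha subunit of the carboxylase (chromosome 3, 35959312 to 36000678), stood apart in level. It was listed at 0.05 and 0.07 RPKM in Het and at 0.04 RPKM in each Nf1-KO library, and the authors' deposited table gave it a mean normalized count of 7.58 per library. Mccc2, the beta subunit of the same enzyme, was 11.41 and 11.54 RPKM in Het and 18.14 and 18.02 RPKM in Nf1-KO. The 2 subunits thus differed in listed level by more than 100 times in every library. The annotation used for counting is not given in the sources used here, and whether its model of Mccc1 captures the transcripts of the gene in muscle was not tested, so the gap is one of listed values. With no filter Mccc1 had a log2 fold change of -0.03 and a limma adjusted p of 0.244. Exons of Mccc1 overlap those of 3 genes on the other strand in GENCODE M21.

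Valine is broken down by Acad8, the hydratase Echs1, Hibch, Hibadh and Aldh6a1. Acad8, isobutyryl-CoA dehydrogenase (chromosome 9, 26974135 to 26999566), was 10.59 and 10.97 RPKM in Het and 14.07 and 13.62 RPKM in Nf1-KO. The groups did not overlap, and the log2 fold change of 0.25 (SE 0.037, limma adjusted p 0.0023) was the smallest of the 7 members that rose. Hibch, which releases 3-hydroxyisobutyrate from coenzyme A so that it can leave the cell (chromosome 1, 52844929 to 52920986), was 20.67 and 20.41 RPKM in Het and 23.24 and 22.22 RPKM in Nf1-KO. Both Nf1-KO libraries were higher, but the log2 fold change after scaling was 0.05 with a 95% interval of -0.03 to 0.13 and a limma adjusted p of 0.264. With values as deposited it was 0.14 and passed (limma adjusted p 0.014; 0.014 to 0.666 over its alternatives). The genes on either side of Hibch in the arm were called higher, with log2 fold changes of 1.11 for Echs1, which also serves isoleucine and fatty acids, 0.64 for Hibadh, which oxidizes 3-hydroxyisobutyrate, and 0.48 for Aldh6a1.

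The other genes of the pathway were taken as a list of 19, of which 18 were tested. In Nf1-KO, 14 rose and 2 fell, with a median log2 fold change of 0.44. Together with the members, 21 of 27 tested pathway genes rose and 2 fell. Over all tested genes 24.9% were called higher and 25.4% lower. The largest increases were in Echs1 (1.11), Acadsb (0.97), Acat1 (0.77) and Hibadh (0.64). Acadsb, the short branched-chain dehydrogenase that opens the isoleucine arm, was 21.28 and 22.91 RPKM in Het and 46.44 and 47.85 RPKM in Nf1-KO. Acat1, the thiolase that closes it, was 73.58 and 72.08 RPKM in Het and 134.63 and 132.41 RPKM in Nf1-KO. All 4 genes of the isoleucine arm rose, with a median of 0.87. After scaling, each Nf1-KO library was above each Het library in all of them, against 38.2% of all tested genes. Exons of Echs1 overlap those of Paox, those of Aldh6a1 overlap Bbof1, those of Mut overlap Cenpq and those of Pcca overlap Ggact. The same holds for Glul with Teddm2, Pdha1 with Map3k15 and Esrra with Trmt112.

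Propionyl-CoA from valine and isoleucine is carried to succinyl-CoA by Pcca, Pccb, Mcee and the cobalamin-dependent mutase Mut. Pccb, Mcee and Mut rose, with log2 fold changes of 0.44, 0.37 and 0.48. Pcca, the partner subunit of Pccb, was 14.94 and 15.32 RPKM in Het and 17.22 and 17.36 RPKM in Nf1-KO, a log2 fold change of 0.09 that missed the threshold (limma adjusted p 0.051). It passed with values as deposited (0.18, limma adjusted p 0.0041) and when only genes with 1 RPKM or more in every library were tested (0.10, 0.034), and ran from 0.0041 to 0.224 over its alternatives. The genes that supply the cobalamin cofactor were mixed: Mmaa and Mmadhc rose by 0.44 and 0.18, Mmab fell by 0.13 on the log2 scale, and Mmachc had a log2 fold change of -0.08 (limma adjusted p 0.064). The authors' deposited table did not call Mmab (-0.15, adjusted p 0.109). In the fit here the call for Mmab was close to the threshold (limma adjusted p 0.045). It was lost with values as deposited (-0.04, limma adjusted p 0.450), and without Het replicate 1 (0.169), Nf1-KO replicate 1 (0.087) or Nf1-KO replicate 2 (0.193), and ran from 0.039 to 0.450 over its alternatives.

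**Figure D3:**
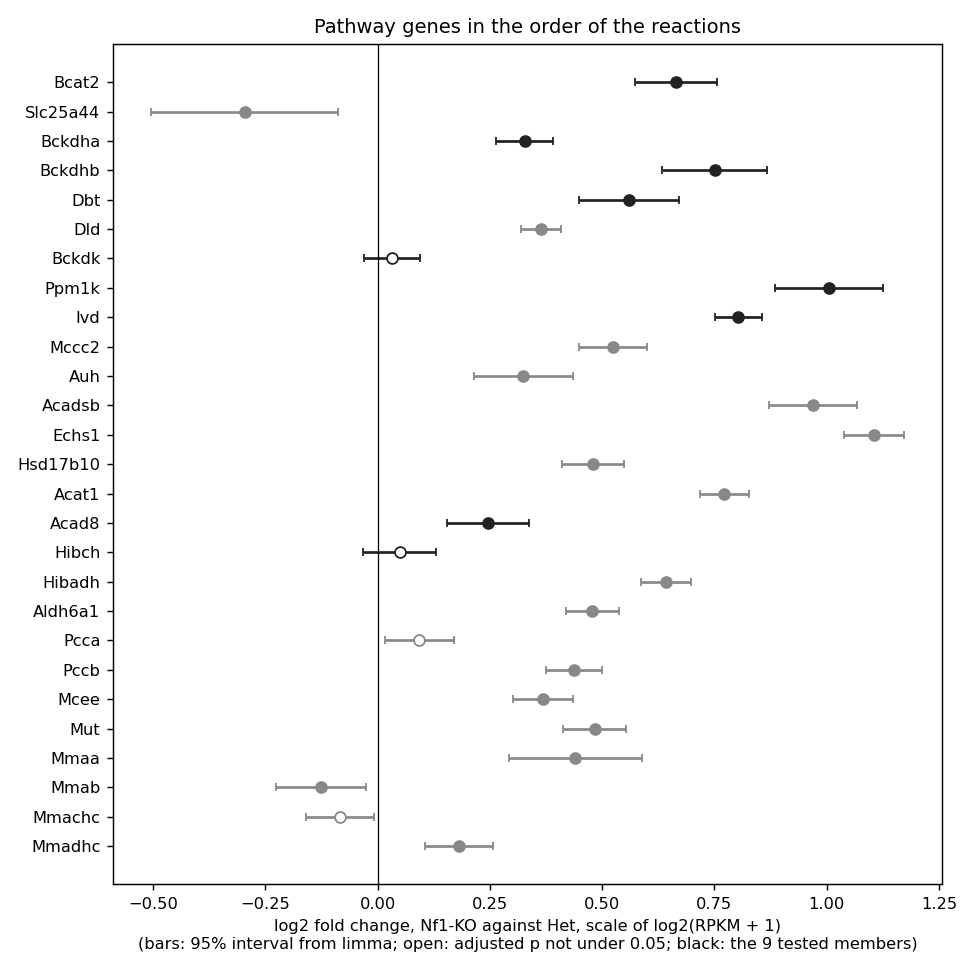
Log2 fold change of Nf1-KO against Het (horizontal axis, on the log2(RPKM + 1) scale) with 95% intervals from limma for 27 tested genes of the pathway, in the order of its reactions. Filled points have an adjusted p under 0.05, open points do not, and black points are the 9 tested members. Bckdk and Hibch lie near 0 between genes that rose, and Slc25a44 and Mmab are the filled points below 0.

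The amino group removed by Bcat2 leaves muscle mainly as glutamine and alanine. Of 6 genes of this transfer, 5 rose and 0 fell (1, Gpt2, was lower in limma at an unadjusted p under 0.05), with a median log2 fold change of 0.46. Among all tested genes 24.9% were called higher. Glul, glutamine synthetase, rose the most, from 44.78 and 45.25 RPKM in Het to 151.37 and 149.00 RPKM in Nf1-KO, a log2 fold change of 1.62 (SE 0.022, limma adjusted p 3.2e-07). Its 2 groups were more than 100 RPKM apart while replicates were within 3 RPKM. The aspartate transaminases Got1 and Got2 rose by 0.81 and 0.55, glutamate dehydrogenase Glud1 by 0.37 and the alanine transaminase Gpt by 0.35. Gpt2, the mitochondrial alanine transaminase, was 51.47 and 51.08 RPKM in Het and 52.31 and 52.77 RPKM in Nf1-KO. It had a log2 fold change of -0.06 (limma adjusted p 0.075), which was 0.03 with values as deposited, and the authors' deposited table called it lower (-0.07, adjusted p 0.040).

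Of 5 regulators of oxidative and amino acid breakdown genes in muscle, 4 rose and 0 fell, against 24.9% of all tested genes called higher. All 5 had a log2 fold change above 0. Klf15, a transcription factor that induces Bcat2 and other amino acid breakdown genes, was 15.47 and 15.81 RPKM in Het and 32.06 and 33.01 RPKM in Nf1-KO, a log2 fold change of 0.92 (SE 0.031, limma adjusted p 4.1e-06). The fatty acid sensor Ppara had a log2 fold change of 0.92, the coactivator Ppargc1a 0.37 and the receptor Esrra 0.25. Ppard, at 7.83 and 7.79 RPKM in Het and 8.82 and 8.74 RPKM in Nf1-KO, did not pass (0.07, limma adjusted p 0.176). It passed with values as deposited (0.15, limma adjusted p 0.014; 0.014 to 0.369 over its alternatives).

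The pyruvate dehydrogenase complex has the same layout of E1, E2, E3, kinases and phosphatases, and was set beside the members. Of its 11 genes, 10 were tested, and Pdpr was listed at 0. Pdk3 (0.23 and 0.30 RPKM in Het, 0.62 and 0.53 RPKM in Nf1-KO) passed the filter on low values only through the Nf1-KO libraries. Of the other 9, 7 rose and 0 fell, with a median log2 fold change of 0.26, while with Pdk3 it was 8 of 10 and 0.27. The smallest rise among the called was that of Dlat (0.09, limma adjusted p 0.015), whose call changed in 3 of 15 alternatives. Leaving out Pdk3 was chosen after its values were seen. The E1 alpha subunit Pdha1 rose by 0.33. Genes of both kinds of regulator rose: the kinase Pdk4 rose from 284.41 and 281.92 to 660.05 and 655.65 RPKM (log2 fold change 1.12), Pdk2 rose by 0.26 and Pdk1 did not pass (0.02, limma adjusted p 0.661), while the phosphatases Pdp1 and Pdp2 rose by 0.36 and 0.76. Pdp2 was low, at 1.33 and 1.07 RPKM in Het and 3.05 and 2.74 RPKM in Nf1-KO, and its value moved with the pseudocount. At a pseudocount of 0.1, Pdp2 and Pdk4 both had a log2 fold change of 1.12. The authors' deposited table put Pdp2 at 1.17 and Pdk4 at 1.11, so the data give no order between them. In the 14 tricarboxylic acid cycle genes 13 rose and Idh3a fell, with a median of 0.35. The log2 fold change of Idh3a was -0.07, and with values as deposited it turned to 0.02, above 0. The authors' deposited table called Idh3a lower (-0.09, adjusted p 2.2e-04). The counts of both lists stand beside 24.9% of all tested genes called higher and 25.4% lower. Without Nf1-KO replicate 1, Idh3a was not called (-0.05, limma adjusted p 0.122; 0.0091 to 0.358 over its alternatives). Suclg2, Sdhb, Sdha and Ogdh had the largest increases, of 0.61, 0.58, 0.48 and 0.43. The members' median of 0.56 was above both, but the ranges overlapped: 0.03 to 1.00 for the members, 0.02 to 1.12 for the pyruvate dehydrogenase genes and -0.07 to 0.61 for the cycle. These lists were not tested against each other.

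**Figure D4:**
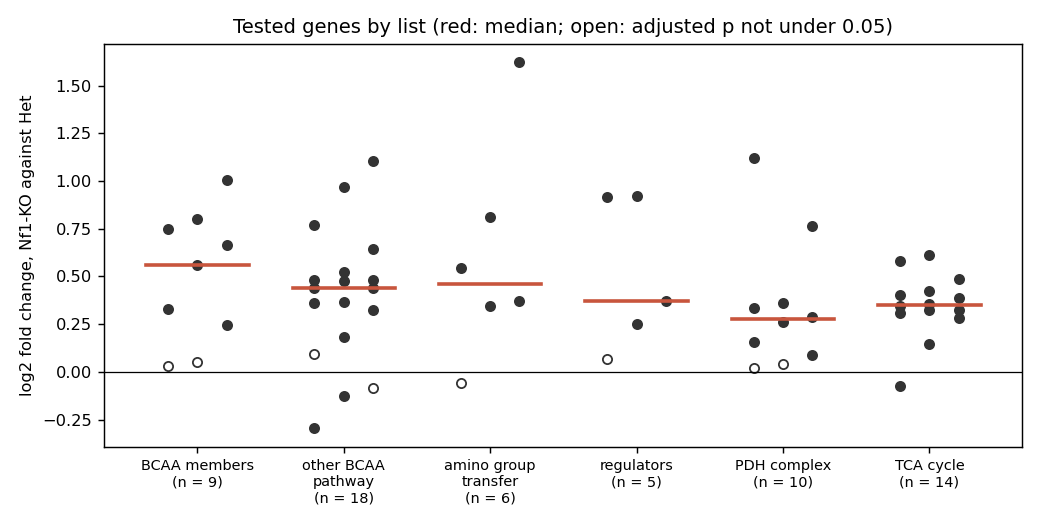
Log2 fold change of Nf1-KO against Het (vertical axis) of every tested gene in 6 lists, with the list's median in red; open points did not reach an adjusted p under 0.05. Medians are 0.56 for the members, 0.44 for the other pathway genes, 0.27 for the pyruvate dehydrogenase complex (Pdk3 included) and 0.35 for the tricarboxylic acid cycle, and the points of the lists overlap.

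The authors' deposited table, which rests on read counts, called the same 7 members higher and 0 lower, where 15% of its 13985 genes were called higher and 16.6% lower. It gave log2 fold changes of 0.70 for Bcat2, 0.32 for Bckdha, 0.78 for Bckdhb, 0.60 for Dbt, 1.17 for Ppm1k, 0.80 for Ivd and 0.25 for Acad8. Bckdk and Hibch were at 0.02 (adjusted p 0.721) and 0.04 (adjusted p 0.735) in the authors' deposited table, so the table and the scaled fit put both near 0. Apart from Mccc1, the members' mean normalized counts in the authors' deposited table ran from 1475 for Bckdhb to 9389 for Bckdk, so counting error is small for these 9 genes.

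The muscle is a mixture of cells, and fewer cells of a type cannot be told apart from less RNA per cell. Markers of other cell types moved with the groups in part. For their counts, the share over all tested genes was 24.9% called higher and 25.4% lower. Adipocyte markers, from a tissue that also breaks down branched-chain amino acids, summed to 178 and 185 RPKM in Het and 268 and 266 RPKM in Nf1-KO, of which Fabp4 held 170.60 to 249.39 RPKM. Of these 6 genes, 3 were tested and 2 (Cfd and Fabp4) rose. The defining markers Adipoq (0.95 to 1.31 RPKM), Plin1 (0.34 to 0.41 RPKM) and Lep (0.03 to 0.22 RPKM) were low in all 4 libraries, and of the brown adipocyte markers Ucp1 was listed at 0 while Cidea rose from 0.75 and 1.02 to 2.01 and 2.52 RPKM. Schwann cell markers summed to 15.4 and 15.8 RPKM in Het and 35.4 and 34.0 RPKM in Nf1-KO, with 5 of 5 higher. Macrophage markers summed to 1.53 and 1.82 RPKM in Het and 4.06 and 3.68 RPKM in Nf1-KO, with 2 of 2 tested higher and Adgre1 listed at 0. Fibroblast markers summed to 77.2 to 79.6 RPKM in Het and 115 RPKM in each Nf1-KO library, with 4 of 5 higher. Endothelial markers summed to 76.0 and 76.4 RPKM in Het and 82.0 and 80.9 RPKM in Nf1-KO, with 2 higher and 2 lower. Liver markers were at 0.02 RPKM or less, and among blood markers only Alas2 was tested and did not pass. Of the 6 muscle markers, Mb and Des were higher and Acta1, Ckm, Tnnt3 and Myh4 lower. Myh4 went from 6766.78 and 7014.79 RPKM in Het to 3508.18 and 3427.52 RPKM in Nf1-KO (log2 fold change -1.08). Mb went from 2932.78 and 2906.07 RPKM in Het to 5099.08 and 5135.09 RPKM in Nf1-KO (0.72). The part of these shifts in the members' values was not tested.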

How the data were processed

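Total RNA of 4 libraries (2 Het, 2 Nf1-KO) was measured. The submitters' processing notes name STAR 2.4.2a, DESeq2 and the build mm9; the counting program, annotation and strand setting are not given in the sources used here. The authors deposited 1 value per gene and library, read from the values as RPKM since the headers name no unit. Their comparison table has, per the file headers, the DESeq2 layout: the signal the authors deposited is a mean of counts divided by size factors, with a log2 fold change and its error, a test score that the authors deposited, and a deposited p-value and adjusted p-value.

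Of 34682 rows, 33 named by a number were left out and the highest-mean copy of each name was kept. The 10690 genes that reached 0.5 RPKM in 2 or more libraries entered limma 3.58.1 (R 4.3.3) as log2(RPKM + 1), with the prior variance following the mean. Libraries were first scaled by a trimmed mean of log ratios without weights, leaving out 30% of the ratios and 5% of the abundances on either side (factors 0.969, 0.967, 1.03 and 1.03). Tests were two-sided, with Benjamini-Hochberg adjustment across the tested genes and a threshold of 0.05. The fit was tested on simulated data. Depth was estimated from the steps of low values in genes with transcripts under 400 bases, as the depth at which values worth at most 12 reads lay nearest to whole numbers. Rows at 0 in all libraries numbered 15496, so a 0 is reported as a listed value. Gene positions and overlaps are from GENCODE M21 (GRCm38), which is not the build the authors used; the files hold no coordinates. Promoters are from RefSeq (GRCm38.p6). The main fit did not pair equal replicate numbers, since the labels do not say whether they share an animal, litter or day. The correlation of the deviations of same-numbered libraries was -0.018. With 2 libraries a group, this value cannot exclude pairs. Named in the text were all members, and in each list the genes called where 5 or fewer were, otherwise the 4 largest changes and those against the main direction, plus neighbours in the pathway. From the pathway list 1 gene is not reported here and was left out of its counts. The members and lists were chosen with earlier results of these data known.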

Additional observations from a re-analysis of the deposited data

How the results depend on the processing

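Of the 9 tested members, 7 kept their direction and their call under all 15 alternatives that gave them a value, and 2 (Bckdk and Hibch) passed only with values as deposited, at 0.12 and 0.14, which made the count of members higher 9 in place of 7. Without scaling, 3760 of the 10690 tested genes were called higher, against 2660 with it. As a share of the calls in either direction, these were 66.6% and 49.5%. The members' median moved from 0.56 to 0.43 with no filter, where Mccc1 entered, and to 0.65 with values as deposited. Leaving out each library gave medians of 0.50 to 0.61 and 7 members higher each time. In those fits a group of 1 library is assumed to vary like the other group.

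The 2 lower genes of the other pathway list became 0 with no filter, 0 with values as deposited, 0 with no variance trend and 1 with 1 RPKM in every library, and 0 to 2 when a library was left out. The lower nitrogen genes became 1 with no filter (Gpt2, -0.07). The 1 lower gene of the tricarboxylic acid cycle became 0 with values as deposited and 0 with no variance trend, and 0 to 1 without a library. With values as deposited, Mmachc, Gpt2 and Idh3a turned to 0.0054, 0.034 and 0.021. Nf1 lost its call with no filter (-0.19), with values as deposited (-0.13) and with the replicate number as a block (-0.18, limma adjusted p 0.056); without a library it ran from -0.21 to -0.15. The replicate block changed no call among the 9 tested members, and the number of genes called was 5226 against 5372. The cause of these changes was not tested. Since 2 libraries a group leave 2 residual degrees of freedom, calls lean on the variance estimate that is pooled over genes.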
